A study of Mus musculus with 4 samples.

Results

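Ring1B was measured at the genes of the retinoic acid receptors, of the enzymes that make and break down retinoic acid, and of the retinoic acid binding protein Crabp1. The probes were chosen by the gene name that the array files give them, from a list of 10 names. The list was drawn up by function, with earlier results of these data known. Of the 10 names, 8 had probes: Rara, Rarb, Rarg, Aldh1a1, Aldh1a3, Cyp26a1, Cyp26b1 and Crabp1. They carried 346 of the 474198 probes used and gave 8 of the 17649 promoters measured. Ring1B at Aldh1a2 and Cyp26c1 was not analysed here, and only their promoter sequences were searched.

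The series maps Ring1B, the ubiquitin ligase subunit of Polycomb repressive complex 1 (PRC1), by chromatin immunoprecipitation and hybridisation to promoter arrays (ChIP-on-chip), and its title links polymers of the SAM domain to clustering of PRC1 in the nucleus and to silencing. Both groups were C57BL/6 mouse embryonic fibroblasts (MEFs) from embryonic day 12.5 at passage 2, and they differed in genotype: wild type, or homozygous Phc2 L307R/L307R, a substitution in a PRC1 subunit that carries a SAM domain. The 4 arrays were of 2 designs with 0 probes in common, each hybridised once per genotype, so each promoter was measured once in each genotype. There is therefore no error between cultures, no test was possible, no p-value is given, and the SD printed beside a window value is the spread over its 3 neighbouring probes.

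The 2 designs held 237195 and 237185 probes. Input DNA was well above background at 85.7% (design 1) and 86.7% (design 2) of the wild-type probes, and at 75.0% and 76.3% of those in Phc2 L307R. Scan day differed between the genotypes, so a difference by day and one by genotype cannot be told apart. The deposited value tables correlated with the scanner files over all probes at 0.999 in Phc2 L307R, but only at 0.854 and 0.890 in wild type, and their values stand beside the results they change. The arrays measure DNA, so the labelled cell type could not be set against marker transcripts. The labels do not say how many embryos or cultures gave each sample.

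Retinoic acid is made from retinal by retinaldehyde dehydrogenases of the Aldh1a family and is oxidised to inactive products by cytochromes of the Cyp26 family. It acts by binding retinoic acid receptors (RARs), which sit on DNA as heterodimers with retinoid X receptors (RXRs), typically at direct repeats of a hexamer. Cyp26a1 and Rarb are textbook direct targets of the receptors, and many genes of retinoic acid signalling and its responders are known Polycomb targets in embryonic stem cells.

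The promoter sequences of Cyp26a1 and Rarb are shown because these genes carried the longest Ring1B stretches among the 8. Each is the stretch of 250 bases before a start site in RefSeq (build GRCm38.p6), 5′ to 3′ on the gene's strand, with any direct repeat of the hexamer in capitals. Cyp26a1 lies at chr19:37697558-37697807 on the plus strand and Rarb at chr14:16575477-16575726 on the minus strand. With the build of the probe positions not given in the sources used here, the RefSeq coordinates are not set against them.
Cyp26a1: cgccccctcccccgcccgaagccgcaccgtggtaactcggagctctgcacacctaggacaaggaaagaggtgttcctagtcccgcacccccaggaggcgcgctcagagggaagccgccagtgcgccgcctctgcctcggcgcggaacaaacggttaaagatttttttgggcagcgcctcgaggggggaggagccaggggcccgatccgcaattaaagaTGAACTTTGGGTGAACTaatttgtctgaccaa
Rarb: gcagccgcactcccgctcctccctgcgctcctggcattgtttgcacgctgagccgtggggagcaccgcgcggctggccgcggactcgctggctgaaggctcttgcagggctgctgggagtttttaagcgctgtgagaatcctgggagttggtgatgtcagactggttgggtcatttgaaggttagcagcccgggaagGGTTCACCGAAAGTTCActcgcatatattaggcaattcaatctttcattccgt

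The hexamer searched was AGGTCA, with the variant AGTTCA, the variant GGGTCA and the variant GGTTCA, on both strands, alone and as direct repeats with a spacing of 1, 2 or 5 bases (DR1, DR2, DR5), where a repeat also counts as its hexamers. A DR5 was found in 2 of the 9 listed genes that the promoter table holds. In Rarb it read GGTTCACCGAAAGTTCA and ran from 53 to 37 bases before the start. In Cyp26a1 it stood on the other strand, from 32 to 16 bases before the start, as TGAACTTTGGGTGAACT, which reads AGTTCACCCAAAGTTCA in the direction of the repeat. Over 32851 promoters of 300 bases (250 before to 50 after the start), 0.0974% held a DR5, 0.222% a DR1, 0.268% a DR2 and 43.7% at least 1 hexamer. None of the 9 genes had a DR1 or DR2 in these windows. A match describes the letters only.

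Ring1B enrichment is given as log2 of immunoprecipitate over input, centred on the median of each array. Each gene is represented by 3 neighbouring probes spanning at most 2000 bp, placed where their mean over wild type and Phc2 L307R was highest. Windows so chosen lie above the array median at most promoters: their median over all promoters was 0.90 in wild type and 0.80 in Phc2 L307R. A gene was called bound where its window averaged 1 or more, which is 2-fold over the array median. By this rule 5 of the 8 genes were bound in wild type (Rara, Rarb, Rarg, Cyp26a1 and Crabp1), where 45.4% of all promoters were, and 4 in Phc2 L307R (the same without Rarg), where 39.3% were. None of the 8 met the size rule for a difference between genotypes (at least 2-fold, with all 3 probes on the same side). Of the 8997 promoters bound in either genotype, 3.01% were lower and 1.64% higher by that rule. With 8 genes, these counts are only set beside their backgrounds. The genes differed from each other far more than the genotypes did at any of them: window values ran from 0.14 at Aldh1a1 to 2.67 at Cyp26a1 in wild type, while differences between genotypes ran from -0.63 to 0.32.

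**Figure D1:**
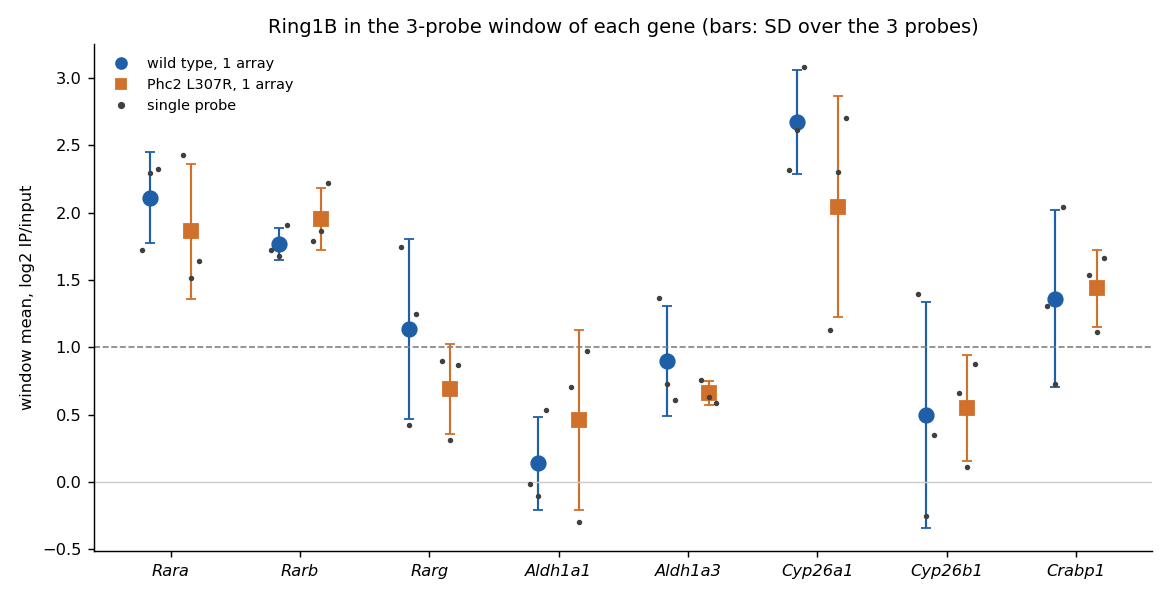
Ring1B enrichment (log2 immunoprecipitate over input) in the 3-probe window of the 8 genes in wild type (blue circles) and Phc2 L307R (orange squares), 1 array each; bars are the SD over the 3 probes, small points single probes, and the dashed line the bound cut-off of 1. Cyp26a1 is highest in both genotypes, at 2.67 and 2.05, and the bars of the genotypes overlap at each gene.

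Among the receptors, Rara and Rarb were well above the cut-off in both genotypes and Rarg was near it. Rara, which encodes RARα, had a window mean of 2.11 ± 0.34 (SD over 3 probes) in wild type and 1.86 ± 0.50 in Phc2 L307R, at chr11:98752327-98752731 in the files' coordinates. The 3 probes read 1.72, 2.29 and 2.32 in wild type against 2.43, 1.51 and 1.64 in Phc2 L307R. The first probe was higher and the other two lower in Phc2 L307R, so the ranges overlapped and the difference of -0.25 was smaller than its spread over the probes (SD 0.84). As high a window was found at 6.45% of promoters in wild type and at 9.68% in Phc2 L307R.

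The 34 Rara probes covered 7.85 kb, and 9 of them reached 1 in wild type and 11 in Phc2 L307R, against backgrounds of 14.0% of all named probes in wild type and 12.9% in Phc2 L307R. Enrichment rose sharply at the same place in both genotypes: the mean of 5 neighbouring probes went from -0.13 to 1.69 in wild type and from -0.25 to 1.48 in Phc2 L307R across the gap between positions 98751649 and 98752327. A step as large (mean over both genotypes) was found at 2.37% of promoters. A stretch of 2.16 kb holds the window and this step, and as long a stretch was found at 10.9% of gene names. The 25 probes outside it still averaged 0.53 in wild type and 0.79 in Phc2 L307R, so Rara was raised over most of what was tiled. The most different Rara probe lay near the other end, at 0.75 in wild type and 2.03 in Phc2 L307R, and the value table gave 2.01 for that probe in wild type too.

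Rarb, which encodes RARβ, had a window mean of 1.77 ± 0.12 in wild type against 1.96 ± 0.23 in Phc2 L307R (SD over 3 probes), at chr14:15368415-15368850. Its probes read 1.72, 1.68 and 1.91 in wild type against 1.79, 1.86 and 2.22 in Phc2 L307R. All 3 were higher in Phc2 L307R, by 0.07 to 0.31, although the ranges overlapped and the difference of 0.19 (SD 0.12) is less than the noise of a single probe, which was 0.40 in wild type and 0.48 in Phc2 L307R on this design (SD from successive probes). The sign turned under 5 of 9 other settings, with values from -0.33 with the value tables, where the window is placed anew, to 0.34 with loess.

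Rarb showed a broad block with an edge. Enrichment filled 4.03 kb from the start of the tiled stretch, at chr14:15366213-15370238, where the 21 probes averaged 1.18 (SD 0.56) in wild type and 1.33 (SD 0.67) in Phc2 L307R. The 22 probes beyond averaged -0.13 and -0.19. Their highest values, 0.34 in wild type and 0.47 in Phc2 L307R, were below every probe inside except the last, which already lay past the edge, at -0.54 and -0.90. At the edge the mean of 5 probes went from 1.65 to -0.32 in wild type and from 1.59 to -0.41 in Phc2 L307R, between positions 15369460 and 15370179 in both. A step as large was found at 1.11% of promoters, and a stretch as long at 3.26% of gene names. Within the block 13 probes were higher and 8 lower in Phc2 L307R, with a mean difference of 0.16 (SD 0.49). With the deposited tables, 19 of the 21 were lower and the mean difference was -0.48, so the direction within the block rests on which wild-type values are used.

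Rarg, which encodes RARγ, had a window mean of 1.14 ± 0.67 in wild type against 0.69 ± 0.33 in Phc2 L307R (SD over 3 probes), at chr15:102086049-102086458. The probes read 1.74, 0.42 and 1.25 in wild type against 0.90, 0.31 and 0.87 in Phc2 L307R. All 3 were lower in Phc2 L307R, by 0.11 to 0.85, but the ranges overlapped and a promoter this high was common, at 38.5% of promoters in wild type and 55.8% in Phc2 L307R. The difference of -0.45 (SD 0.37) was below 0 under each of 9 other settings, and it was -0.08 with the value tables, where the wild-type window was 0.77 and would not be called bound. The wild-type window reached 1 under 4 of the 9.

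The 50 Rarg probes lay in 4 separate regions over 32.1 kb, and the signal was in 1 of them. The region of 32 probes at chr15:102082950-102088608 averaged 0.27 in wild type and -0.09 in Phc2 L307R, a difference of -0.36 (SD 0.45). The other regions averaged below 0 in both genotypes, between -0.70 and -0.18. Only 2 of 50 probes reached 1 in wild type and 0 in Phc2 L307R. Input was dim at 5 of the 50 probes in wild type and at 14 in Phc2 L307R, and the part of this in the difference was not tested.

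Both synthesis genes were below the cut-off in both genotypes. Aldh1a1, a retinaldehyde dehydrogenase gene, had a window mean of 0.14 ± 0.35 in wild type against 0.46 ± 0.67 in Phc2 L307R (SD over 3 probes), at chr19:20666335-20667328. This is near the array median, and 81.9% of promoters in wild type and 69.3% in Phc2 L307R had a window at least as high. Of its 39 probes, 0 reached 1 in wild type and 1 in Phc2 L307R, and the means over all of them were -0.08 and -0.05. The genotypes correlated over these probes at a Pearson's r of only 0.14, the lowest of the 8 genes, where neighbouring probes share fragments and arrays. The window difference of 0.32 (SD 0.47) took either sign with the choice of window, from -0.82 for the window highest in wild type to 0.81 for that highest in Phc2 L307R.

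Aldh1a3, a second retinaldehyde dehydrogenase gene, had a window mean of 0.90 ± 0.41 in wild type against 0.66 ± 0.09 in Phc2 L307R (SD over 3 probes), at chr7:66307066-66307514. The value in wild type lay at the middle of all promoters, whose median was 0.90, and the ranges of the genotypes overlapped, with a difference of -0.24 (SD 0.32). In the value table the same window was 1.55 in wild type and above the cut-off, and the difference was -0.89. Of 59 probes in 2 regions, 5 reached 1 in wild type and 3 in Phc2 L307R, and only 1 did so in both. The most different probes stood alone: one read 0.07 in wild type and 1.76 in Phc2 L307R, and another 1.52 and 0.14. The region of 15 probes at chr7:66269850-66272439 was below the array median, at -0.46 and -0.41.

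The 2 degradation genes lay at opposite ends. Cyp26a1, whose product clears retinoic acid, was the highest of the 8 in both genotypes, at 2.67 ± 0.38 in wild type and 2.05 ± 0.82 in Phc2 L307R (SD over 3 probes), which is 6.37-fold and 4.13-fold over the array median. The window was at chr19:37762292-37762673. Only 2.37% of promoters in wild type and 6.87% in Phc2 L307R had a window as high. The probes read 2.32, 2.61 and 3.08 in wild type against 1.13, 2.30 and 2.70 in Phc2 L307R. All 3 were lower in Phc2 L307R, by 1.19, 0.31 and 0.38, and the ranges overlapped.

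Cyp26a1 also stood out in breadth. Each of its probes lay in at least 1 window of 5 probes averaging at least 1 over both genotypes. The stretch so defined ran over the whole 7.93 kb tiled, at chr19:37757592-37765520. Of all 18354 gene names, 0.283% had as long a stretch, and names tiled over a shorter length could not reach it. Not every window in it reached 1. At position 37759651 a probe read only 0.20 in wild type and 0.31 in Phc2 L307R. Of its 44 probes, 38 reached 1 in wild type (86.4%) and 29 in Phc2 L307R (65.9%), of which 29 did so in both and 6 in neither. Among the 12539 names with at least 20 probes, 1.00% had as high a share in wild type and 1.76% in Phc2 L307R. The stretch reached both ends of the tiling, so its full length was not measured.

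Over all 44 Cyp26a1 probes the mean was 1.64 in wild type and 1.36 in Phc2 L307R, a difference of -0.28 (SD 0.50), with 31 probes lower and 13 higher. At least 2-fold lower were 4 probes and at least 2-fold higher 1, which read 2.24 in wild type and 3.37 in Phc2 L307R and was the highest of that array in the gene. It lay near the window, with 1 probe between them, so the window difference of -0.63 (SD 0.49) depended on where the window was placed. That difference was 0.17 with windows of 5 probes and 0.49 where Phc2 L307R alone placed the window. The genotypes correlated over the 44 probes at a Pearson's r of 0.75. Wild type had a median immunoprecipitate signal of 3324 over an input of 1005, and Phc2 L307R had 2465 over 822, and 6 and 12 probes had dim input. No probe of the 8 genes was saturated.

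The wild-type value mattered most at Cyp26a1. In the value table the window was 4.02 in wild type and the difference -1.98, all 44 probes were lower in Phc2 L307R, and their mean difference was -1.55. With those values the gene met the 2-fold rule, at which 8.25% of promoters bound in either genotype were lower and 0.585% higher. It also did so by a 1.5-fold rule on the scanner values, where 13.5% were lower. The call of Ring1B binding itself held in both genotypes under each of 9 other ways of computing the values.

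**Figure D2:**
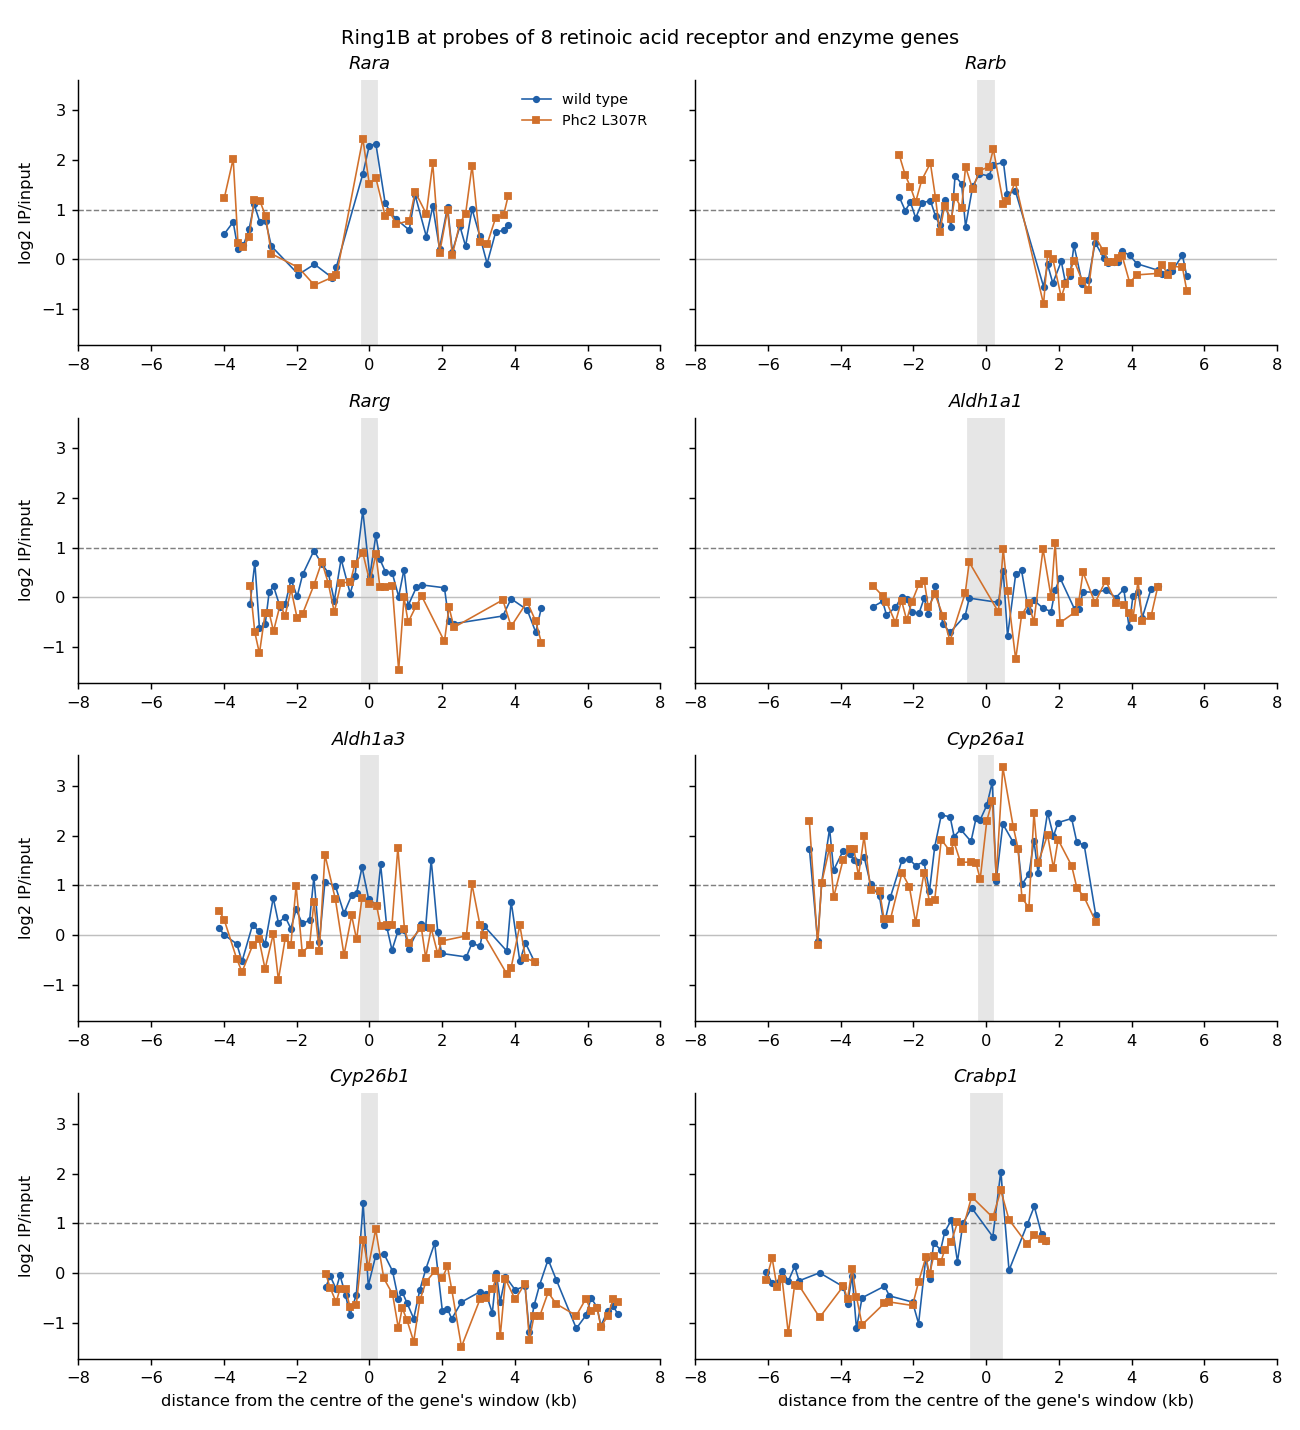
Enrichment (log2 immunoprecipitate over input) at single probes of the 8 genes in wild type and Phc2 L307R against distance from the centre of the window (grey band). Probes within 8 kb of that centre are drawn, which leaves out some regions of Rarg and Aldh1a3. Cyp26a1 is above the cut-off of 1 at 38 and 29 of 44 probes, Rarb falls from 1.65 to -0.32 at 1 edge in wild type and from 1.59 to -0.41 at the same edge in Phc2 L307R, and Aldh1a1 stays near 0.

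Cyp26b1, the related hydroxylase gene, was not bound: its window mean was 0.50 ± 0.84 in wild type and 0.55 ± 0.39 in Phc2 L307R (SD over 3 probes), at chr6:84558005-84558407. The wild-type value came from 1 probe at 1.40 beside probes at -0.26 and 0.34, and the 3 probes in Phc2 L307R read 0.66, 0.11 and 0.88. Over its 44 probes the mean was -0.38 in wild type and -0.50 in Phc2 L307R, below the array median, and 93.8% of names with at least 20 probes had as high a mean or higher in wild type. A small step at the same place in both genotypes lay past the window, from 0.38 to -0.55 in wild type and from 0.22 to -0.94 in Phc2 L307R. Steps of that size were common, at 28.0% of promoters. On the window's other side, the probes up to the end of the tiling all lay below the array median in both genotypes.

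Crabp1 encodes a cytosolic protein that binds retinoic acid. Its window mean was 1.36 ± 0.66 in wild type and 1.44 ± 0.29 in Phc2 L307R (SD over 3 probes), at chr9:54563295-54564142. The probes read 1.31, 0.73 and 2.04 in wild type against 1.53, 1.12 and 1.66 in Phc2 L307R, so the ranges overlapped and the difference was 0.08 (SD 0.40). Values as high were found at 28.2% and 20.6% of promoters. A stretch of 2.16 kb with 8 probes averaged 0.96 and 1.08, against -0.03 and -0.15 over the 25 probes outside it. A stretch is placed by its enrichment, and as long a stretch was found at 10.9% of gene names. The binding call rested on the setting: with normexp the window was 0.59 and 0.50, and the call was lost in both genotypes, as it was with a cut-off of 1.5 and with the mean over all probes. With the value table the wild-type window was 2.26 and the difference -0.82, and all 8 probes of the stretch were lower in Phc2 L307R, where 4 were lower with the scanner files.

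Ordered by the wild-type window, the genes were Cyp26a1, Rara, Rarb, Crabp1, Rarg, Aldh1a3, Cyp26b1 and Aldh1a1. Measured by the SD over probes, Cyp26a1 lay above Rara by more than either SD and Rara above Rarb by about the SD of Rara, while each later pair of neighbours lay within the larger of its SDs. In Phc2 L307R the order was Cyp26a1, Rarb, Rara, Crabp1, Rarg, Aldh1a3, Cyp26b1 and Aldh1a1, with only Rara and Rarb exchanged. The median window over the 8 genes was 1.25 in wild type and 1.06 in Phc2 L307R, against 0.90 and 0.80 over all promoters. The median difference was -0.09, with 4 of 8 below 0, and -0.25 over the 5 bound genes, against -0.14 over all bound promoters.

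**Figure D3:**
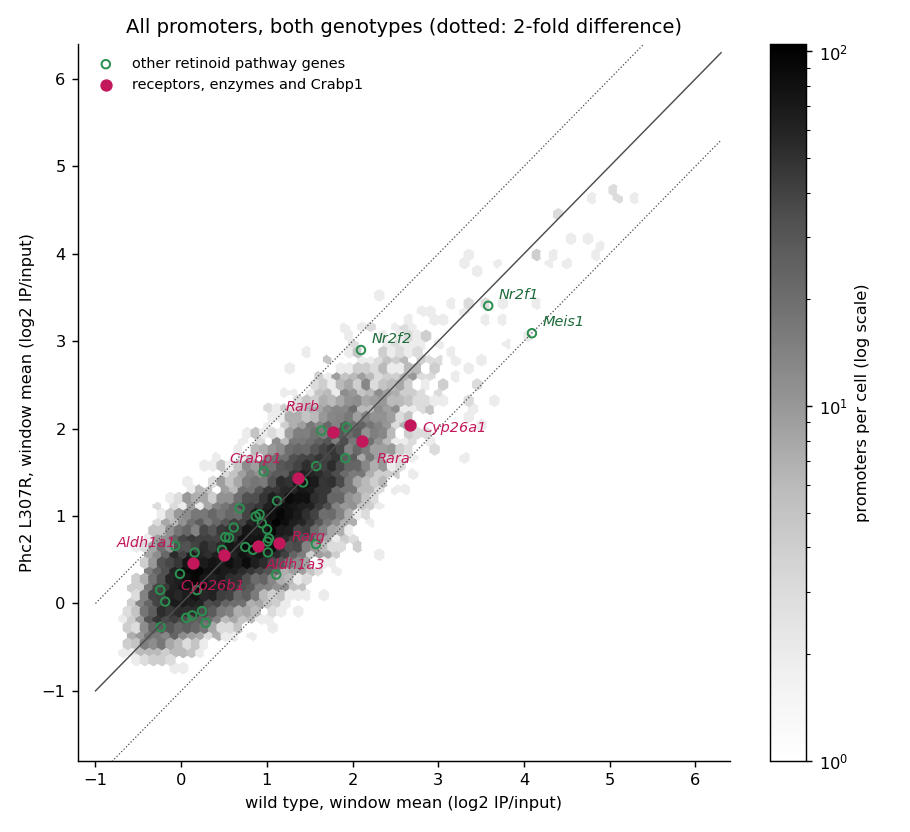
Window means (log2 immunoprecipitate over input) of 17649 promoters in wild type against Phc2 L307R, grey by the number of promoters per cell on a log scale, with the 8 genes in red and other retinoid pathway genes in green; dotted lines mark a 2-fold difference. All 8 genes lie between the dotted lines, with Cyp26a1 at 2.67 and 2.05, and Meis1, at 4.09 and 3.09, lies on the lower one.

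**Figure D4:**
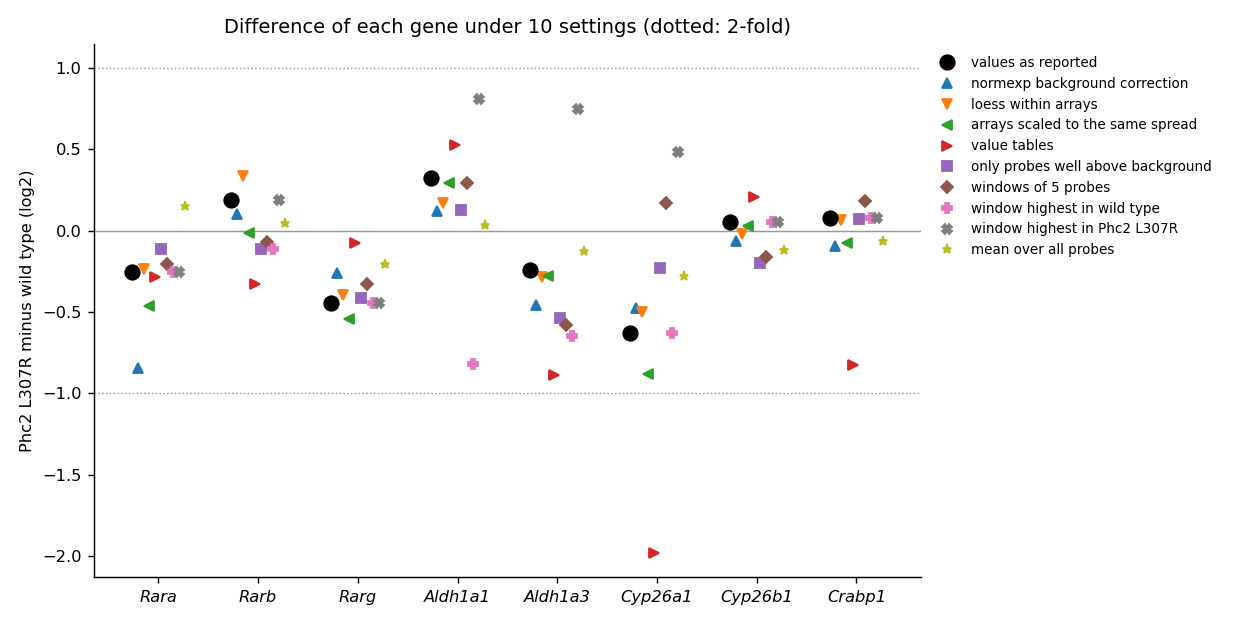
Difference of Phc2 L307R minus wild type (log2) of each of the 8 genes under 10 settings, with the values of the text in black and dotted lines at 2-fold. The value tables (red) put Cyp26a1 at -1.98, the only point beyond 2-fold, and Rarg is below 0 under all of them.

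CpG content of the promoters was set beside Ring1B, since CpG islands are known to recruit Polycomb complexes. The observed over expected CpG ratio of the most CpG-rich RefSeq promoter of each gene was 0.894 at Cyp26a1, 0.696 at Rarb, 0.609 at Rara, 0.543 at Crabp1, 0.504 at Rarg, 0.314 at Cyp26b1 and 0.213 at Aldh1a1, over the 7 measured genes in the table. Where the table holds several starts of a gene, as for Rara, Rarg and Aldh1a1, which of them the probes cover is not known. The 3 genes of highest ratio were the 3 of highest Ring1B, and the 2 of lowest ratio the 2 of lowest Ring1B, in both genotypes. Across 10269 names that matched the table, 63.8% of promoters with a ratio of at least 0.6 were bound in wild type and 53.8% in Phc2 L307R, against 22.6% and 20.9% of those below it. The direction over these 7 genes was that seen over promoters at large, with limits. Crabp1 and Rarg lay below 0.6 and were bound in wild type, and Rara was only just above 0.6. A link between CpG content and Ring1B was not tested.

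Of 41 other genes of the pathway, 39 were measured. In wild type 17 of 39 were bound, where 45.4% of all promoters were, and in Phc2 L307R 14 of 39, where 39.3% were. Their median windows were 0.91 and 0.75, with a median difference of -0.01. Of the 20 bound in either genotype, 1 was lower and 2 higher by the size rule, where 3.01% and 1.64% of all such promoters were. With counts this small, the shares are only given side by side. In this list the 2 highest wild-type values were both at genes that respond to retinoic acid.

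Among 5 receptor partners and coregulators, 3 were bound in wild type and 2 in Phc2 L307R. The coregulator gene Nrip1 was at 1.58 and 1.57, the highest of this group in wild type. Rxrb, an RXR gene, was the lowest, at 0.61 and 0.87.

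Among 9 genes of uptake, storage and carriers, 2 were bound in each genotype, but 0 in both. Over all promoters, 5954 were bound in both genotypes of 8997 bound in either. Crabp2, whose product hands retinoic acid to the receptors, was the highest in wild type, at 1.57, and was at 0.68 in Phc2 L307R. Its difference of -0.89 (SD 0.22) missed the 2-fold rule and was -1.43 with the value tables. Its relative Crabp1 was at 1.36 and 1.44. Rbp3, a retinoid carrier of the eye, was the lowest, at -0.24 and -0.27.

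Among 16 genes of retinol and retinal metabolism, 7 were bound in wild type and 6 in Phc2 L307R, and 0 differed by the rule. Dhrs3, a retinal reductase gene, was the highest, at 1.93 and 2.01, and Rdh1, a retinol dehydrogenase gene, the lowest, at -0.24 and 0.15. In wild type, Cyp26a1 thus lay above every one of the measured metabolic genes.

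Among 9 genes known to respond to retinoic acid, 5 were bound in wild type and 4 in Phc2 L307R. Meis1, a homeobox gene, was the highest and the only one lower by the rule, at 4.09 in wild type and 3.09 in Phc2 L307R, a difference of -1.003 (SD 0.05) that was -2.40 with the value tables. Meis1 only just passed the rule, and it did not with loess, normexp, bright probes only, windows of 5 probes or the mean over all probes. Tgm2, a transglutaminase gene, was the lowest, at -0.01 and 0.34. Cyp26a1, itself a responder, lay below Meis1 in both genotypes.

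**Figure D5:**
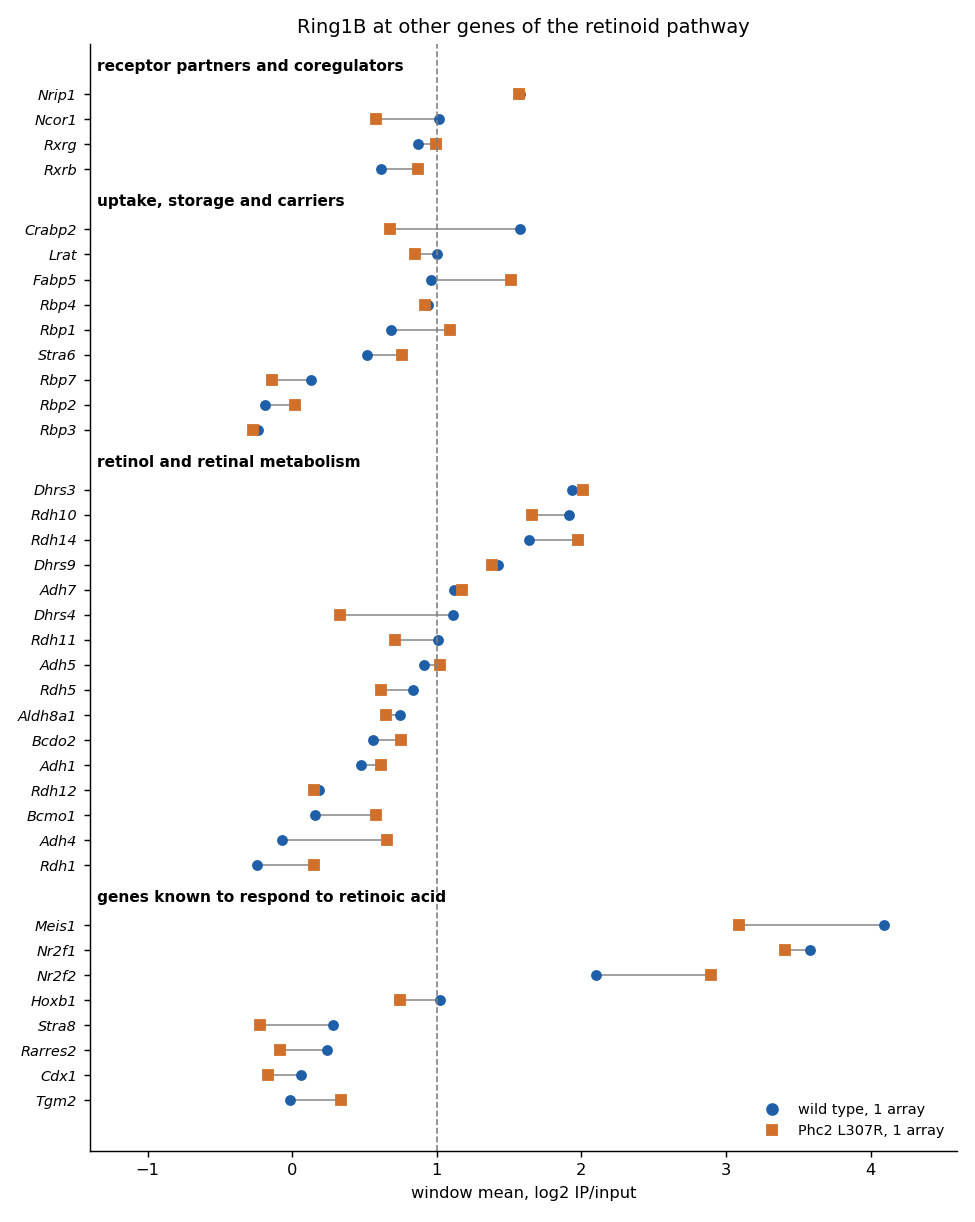
Window means (log2 immunoprecipitate over input) of other retinoid pathway genes by role in wild type (blue circles) and Phc2 L307R (orange squares), 1 array each, with the bound cut-off of 1 dashed. Meis1 is the highest in wild type, at 4.09 against 3.09 in Phc2 L307R, and Crabp2 is at 1.57 and 0.68.

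The promoters most like Cyp26a1, as the 3 nearest in the window values of both genotypes on the same array design (Euclidean distance over the 2 arrays), were those of Plekhc1 at 2.67 and 2.03, Gnal at 2.70 and 2.04 and Smcr8 at 2.71 and 2.05. The distances were 0.019, 0.034 and 0.035. These promoters matched Cyp26a1 in height and not in breadth: 38.2%, 36.5% and 28.6% of their probes reached 1 in wild type, against 86.4% at Cyp26a1, and their stretches were 3.80, 3.26 and 1.48 kb long, against 7.93 kb.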

How the data were processed

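Ring1B was measured in 2 genotypes of mouse embryonic fibroblasts on 2-colour Agilent promoter arrays, with input in Cy3 and immunoprecipitate in Cy5 and no dye swap, per the labels. Spot intensity was read from the deposited scanner files, which the authors quantified with Agilent Feature Extraction 10.7.3.1, per the file headers, with background subtraction, detrending and linear dye normalization. Their log10 ratio of Cy5 over Cy3 was deposited too, and the authors' value tables were found to be on a log10 scale by setting them against the scanner files, with centring unstated. What sets the wild-type value tables apart from the scanner files is not known.

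Log2 ratios of the processed signals were taken, and the median of each array was set to 0, without control spots and outlier spots; saturated spots were kept. Groups came from the genotype labels. Array design, window, bound rule (1) and size rule (1 on the log2 scale) are as given in the text. The genes and lists were chosen with earlier results of these data known. Stretches, steps, the rank of probe shares and the CpG classes were chosen after seeing the data. A stretch is a run of probes, each in at least 1 window of 5 probes within 4000 bp averaging at least 1 over both genotypes. Named genes are all measured members of the list, other pathway genes that met the size rule, the highest and lowest of each role in wild type, and the 3 promoters nearest to the highest member. Some pathway genes enter the counts and medians but are not reported here singly. Precision is limited by the number of arrays.

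Alternatives were normexp background correction (offset 50), loess within arrays, arrays of a design scaled to the same spread, the value tables, only probes well above background, windows of 5 probes or chosen in 1 genotype, the mean over all probes, a bound cut-off of 1.5 and a 1.5-fold rule. Python 3.11.15, numpy 2.4.6, pandas 2.3.3, scipy 1.17.1, matplotlib 3.10.9, R 4.3.3 and limma 3.58.1 were used.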

Additional observations from a re-analysis of the deposited data

How the results depend on the processing

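With 1 array per genotype for each promoter, leaving out an array was impossible. No paired analysis was possible because the title numbers stand for array designs with 0 probes in common. Of 216 gene values recomputed, 54 moved by more than the SD over their probes, and calls changed as follows. Of the 8 genes, 5 were bound in wild type as reported. Normexp gave 3 and a cut-off of 1.5 gave 3, both without Rarg and Crabp1, and the mean over all probes gave 1 (Cyp26a1). Bright probes only and windows of 5 probes each gave 4, without Rarg. Placing windows by wild type alone gave 6, with Aldh1a3 added. The value tables gave 5, with Aldh1a3 in place of Rarg. In Phc2 L307R 4 of these genes were bound as reported. Normexp and a cut-off of 1.5 each gave 3 there, without Crabp1, and the mean over all probes gave 1 (Cyp26a1). Cyp26a1 was the 1 gene lower with the value tables and the 1 lower with the 1.5-fold rule. The median difference over the 8 genes ran from -0.35 with the window highest in wild type to 0.13 with that highest in Phc2 L307R. Of the other pathway genes, 17 were bound in wild type as reported, 6 with normexp, 4 with the mean over all probes and 10 with a cut-off of 1.5. Under the remaining settings the number ran from 13 to 18. In Phc2 L307R 14 were bound as reported, 5 with normexp, 4 with the mean over all probes and 10 with a cut-off of 1.5. Under the remaining settings it ran from 11 to 15. Over all promoters, the shares bound in wild type and Phc2 L307R were 22.9% and 12.8% with normexp. They were 4.73% and 3.99% with the mean over all probes, and 22% and 18.6% with a cut-off of 1.5. Under the remaining settings they ran from 33.2% to 47.4% and from 22.6% to 41.5%. Of promoters bound in either genotype, 1.06% to 13.5% were lower and 0.213% to 6.38% higher, by setting. Of the other pathway genes, the number lower, 1 as reported (Meis1), was 1 with loess too, but there it was Crabp2. It was 4 with the value tables (Meis1, Nr2f1, Nr2f2 and Hoxb1), 3 with the 1.5-fold rule, 2 with the window highest in wild type, and 0 with normexp, bright probes only, windows of 5 probes and the mean over all probes. The number higher, 2 as reported, was 1 with loess, 1 with the value tables (Rdh14) and 0 with normexp, bright probes only, windows of 5 probes and the mean over all probes. The causes were not tested. Rarb and Rara were bound in both genotypes under 8 of 9 other settings, the exception being the mean over all probes.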
